A study of Homo sapiens with 4 samples.

Results

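The 9 genes described here encode the enzymes that make serine from glucose carbon and those that pass serine-derived carbon through folate: PHGDH, PSAT1 and PSPH for serine synthesis, SHMT1 and MTHFD1 in the cytosol, and SHMT2, MTHFD2, MTHFD1L and ALDH1L2 in mitochondria. They were taken by gene name, and all 9 were found among the 50868 genes of the deposited table. Their transcripts were measured by sequencing of mRNA from KBM5, an established chronic myeloid leukemia line that carries the BCR-ABL fusion kinase. The groups are control cells (CTR), cells given DSF, cells given IM, and cells given both agents (IM-DSF), each with 1 library; the labels give neither dose nor time. The labels leave the agents as codes, read here as disulfiram (DSF) and imatinib, an inhibitor of the BCR-ABL kinase (IM). All groups come from the same line, whose cells are given as blood in origin, so no value below speaks for another line or for primary cells.

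As background, PHGDH diverts the glycolytic intermediate phosphoglycerate, PSAT1 aminates the product with glutamate as donor, and PSPH removes the phosphate to leave serine. The hydroxymethyltransferases SHMT1 and SHMT2 split serine into glycine and a carbon unit bound to tetrahydrofolate. In mitochondria that unit is oxidised by MTHFD2 and released as formate by MTHFD1L, and MTHFD1 takes up formate in the cytosol for purine and thymidylate synthesis; ALDH1L2 instead burns the mitochondrial unit to carbon dioxide while making NADPH. Proliferating cells use this route heavily, and several of its genes are known targets of the stress-responsive transcription factor ATF4.

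The FPKM values (fragments per kilobase of transcript, scaled to the fragments of the library, so that genes can be compared per length) rest on denominators of 12.4 to 15.8 M fragments per library, and 10677 to 11238 genes reached 1 FPKM. Mitochondrial genome transcripts took 30.1% to 32.6% of the summed FPKM. The cells carried myeloid granule and lineage transcripts in every library (9 of 11 markers at 1 FPKM or more), while KIT was listed at 0 throughout and CD34 did not exceed 0.00554 FPKM. Of 14 markers of T, B, NK, erythroid and megakaryocytic cells only NKG7 passed 1 FPKM, at 10.8 to 13.3. Each group has a single library, so no replicate spread is known and no test was made. A ratio of 2 libraries is given with a 95% interval from approximate fragment numbers, which covers counting error only; fewer cells of a kind and less RNA per cell cannot be told apart in such bulk samples.

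The 9 transcripts spanned a wide range of abundance in CTR. PSAT1 was the most abundant at 69.1 FPKM, above 97.1% of the 9365 protein-coding genes that averaged 1 FPKM or more. MTHFD2 followed at 35.5 FPKM, then PHGDH at 19.7, MTHFD1 at 17.0, MTHFD1L at 12.5, ALDH1L2 at 11.1 and SHMT2 at 10.6. PSPH (4.0 FPKM) and SHMT1 (1.78 FPKM) lay far below the others, SHMT1 above only 14.9% of protein-coding genes. The counting intervals of PHGDH (18.1 to 21.4 FPKM) and MTHFD1 (16.1 to 18.0) lay next to each other without overlap in CTR, whereas those of MTHFD1L (11.5 to 13.5), ALDH1L2 (10.47 to 11.7) and SHMT2 (9.44 to 11.8) overlapped, so that their order is not resolved.

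**Figure D1:**
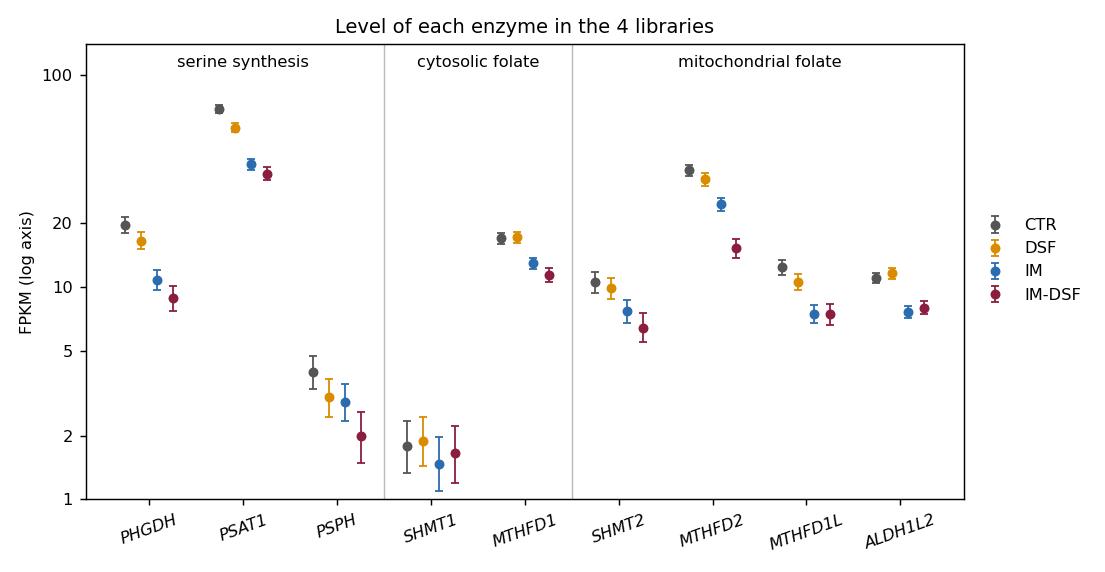
FPKM of the 9 enzymes (log axis) in the CTR, DSF, IM and IM-DSF libraries, grouped by role; bars are exact Poisson 95% intervals of the approximate fragment numbers. In 6 of the 9 genes the levels are in the order CTR, DSF, IM, IM-DSF, with PSAT1 going from 69.1 to 34.3 FPKM, while SHMT1 stays between 1.47 and 1.89.

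RefSeq promoter windows (build GRCh38.p14, 250 bases before to 50 after a start) were held for 6 of the 9 members: PHGDH, PSAT1, SHMT1, MTHFD1, MTHFD2 and MTHFD1L. Because many members were lower in the same libraries, 4 motifs were searched on both strands: the C/EBP-ATF response element TGATGNAA, the E-box CACGTG, the cAMP response element TGACGTCA and the CCAAT box CCAAT, where no motif contains another but matches of different motifs may share bases. A CCAAT box was found in a window of all 6 genes, against 34.6% of 35116 single promoter windows of the same length. A gene with several RefSeq starts, such as MTHFD1L, had several windows in which to match. The C/EBP-ATF element was found in 1 of the 6, MTHFD1L (3.62% of all windows), and the E-box in MTHFD1 and MTHFD1L (7.26%). The cAMP element was in none of the 6 (1.85%). The windows of PSAT1 and MTHFD2, the 2 most abundant members, and of SHMT1, the least abundant and least variable, follow, with CCAAT boxes of either strand in capitals. PSAT1 lies at chr9:78296875-78297124 (plus strand), MTHFD2 at chr2:74198365-74198561 (plus) and SHMT1 at chr17:18363564-18363800 (minus, printed in the direction of transcription). The PSAT1 sequence ends at its RefSeq start, and the other 2 end where the gene begins in GENCODE.
PSAT1: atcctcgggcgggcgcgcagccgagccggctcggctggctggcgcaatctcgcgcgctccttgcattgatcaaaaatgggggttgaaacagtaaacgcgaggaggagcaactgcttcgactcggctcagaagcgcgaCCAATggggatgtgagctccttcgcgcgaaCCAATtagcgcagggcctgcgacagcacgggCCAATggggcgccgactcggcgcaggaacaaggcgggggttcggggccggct
MTHFD2: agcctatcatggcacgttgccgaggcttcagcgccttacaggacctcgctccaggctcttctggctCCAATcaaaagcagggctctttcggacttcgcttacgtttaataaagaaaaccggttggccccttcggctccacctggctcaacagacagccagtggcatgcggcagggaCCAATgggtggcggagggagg
SHMT1: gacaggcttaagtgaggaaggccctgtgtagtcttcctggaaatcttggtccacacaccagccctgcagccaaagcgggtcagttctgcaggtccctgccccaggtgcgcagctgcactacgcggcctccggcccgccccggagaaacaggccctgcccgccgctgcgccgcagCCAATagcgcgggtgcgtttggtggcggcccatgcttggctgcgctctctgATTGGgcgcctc

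PSAT1 held 3 CCAAT boxes in a row, starting 113, 83 and 52 bases before its start; MTHFD2 held 2, at 184 and 74 bases, and SHMT1 2, at 76 bases and, on the opposite strand, at 25. The PHGDH and MTHFD1L windows overlap annotated transcripts, so only 30 bases around a match are printed: the CCAAT box of PHGDH 71 bases before its start (chr1:119711852-119711881, plus strand) and the C/EBP-ATF element of MTHFD1L (chr6:150866346-150866375, plus strand), in capitals. RefSeq gives MTHFD1L 3 starts, and this element lies 129 or 90 bases before, or 25 after, them. A match is a string of letters in the window and says nothing of binding in these cells.
PHGDH: agtatttccgtCCAATcaaaaggagactgt
MTHFD1L: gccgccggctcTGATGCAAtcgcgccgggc

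The first comparison is of IM alone with the control. All 9 enzymes were below CTR in the IM library, by ratios from 0.550 (PSAT1) to 0.827 (SHMT1), and in 8 of them, all but SHMT1, the counting interval lay below 1, as it did in 21.7% of the 10962 genes with a mean past the filter and a known transcript length. Such intervals narrow with fragment number, and 7 of the 9 members averaged at least 5 FPKM, as 5683 of 11004 genes did. Their summed FPKM was 181 in CTR and 114 in IM, a ratio of 0.627 (95% interval 0.602 to 0.653). On the log2(FPKM + 1) scale used for differences, which understates the change of low genes, the median of the 9 was -0.49, against 0.02 for the 11004 genes averaging 1 FPKM or more over the 4 libraries and -0.04 for the 5124 protein-coding genes averaging 5 or more. By any amount, 46.9% of the 11004 genes were below CTR. By at least 0.5 log2 units (1.41-fold), 4 of the 9 were lower (PSAT1, PHGDH, MTHFD1L and MTHFD2), where 5.67% of all genes were; 0 of the 9 were higher by that much, where 9.38% were. At 1 log2 unit (2-fold), 0 of the 9 were lower, against 0.891% of all genes.

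IM-DSF versus DSF makes the comparison for IM in cells that also had DSF, with 2 libraries that the first contrast did not use. Again all 9 were lower, from a ratio of 0.474 (MTHFD2) to 0.878 (SHMT1), while 48.3% of all genes were below DSF, and SHMT1 alone had an interval that held 1, so that 8 lay below it (21.1% of genes). The sum was 160 FPKM in DSF and 95.3 in IM-DSF (ratio 0.598, 0.570 to 0.626), and the median log2 difference was -0.55 against 0.01 for all genes. By 0.5 log2 units 5 of the 9 were lower (6.92% of all genes) and 0 higher (7.66%); MTHFD2 also passed 1 log2 unit, as 1.05% of all genes did in that direction.

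**Figure D2:**
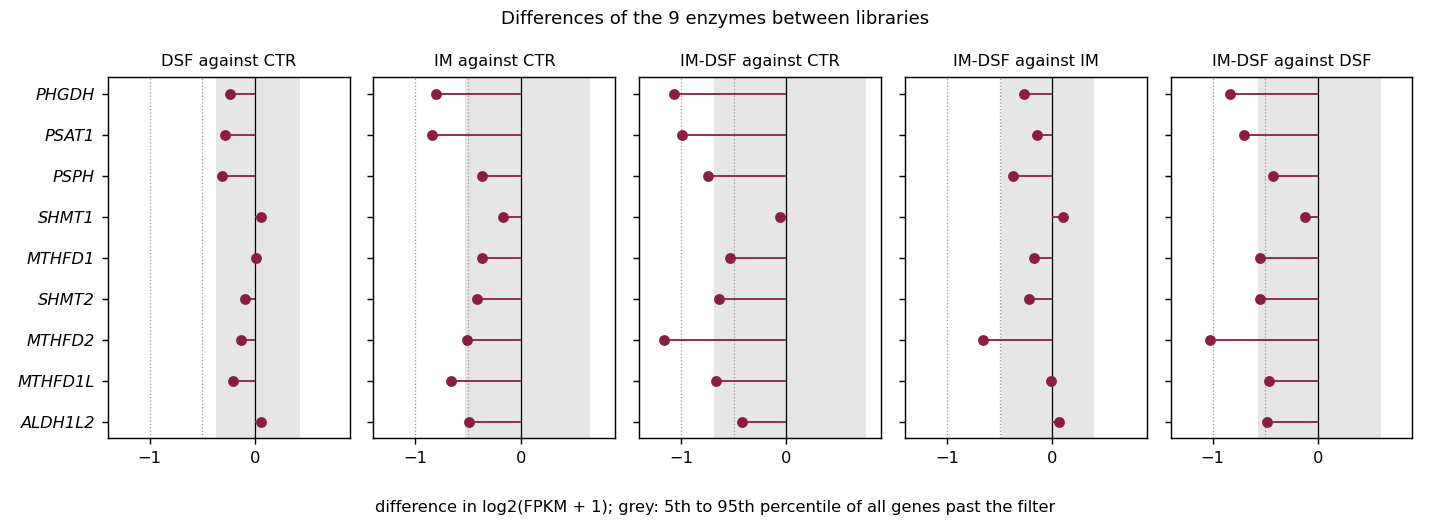
Difference in log2(FPKM + 1) of each enzyme in the 5 contrasts; dotted lines mark -0.5 and -1, and the grey band runs from the 5th to the 95th percentile of the 11004 genes. PSAT1 and PHGDH lie left of the band in all 3 contrasts that add IM or both agents (IM versus CTR, IM-DSF versus CTR, IM-DSF versus DSF), and MTHFD2 in IM-DSF versus CTR, IM and DSF. MTHFD1L also lies left of it in IM versus CTR, and PSPH in IM-DSF versus CTR.

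Of the 9 enzymes, PSAT1 and PHGDH of serine synthesis had the lowest ratios in IM versus CTR. PSAT1 (ENSG00000135069; positions here and below are on GRCh38.p14, chromosome 9, 78297143 to 78330093, plus strand), the aminotransferase, had 69.1 FPKM in CTR, 56.5 under DSF, 38.0 under IM and 34.3 in IM-DSF. The 2 libraries without IM were the higher pair, and all 4 counting intervals except those of IM and IM-DSF were apart. The ratio was 0.550 in IM versus CTR (0.509 to 0.593) and 0.607 in IM-DSF versus DSF (0.556 to 0.662); only 1.23% and 2.85% of all genes had a lower difference in these contrasts.

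PHGDH (ENSG00000092621; chromosome 1, 119659798 to 119744215, plus strand), the dehydrogenase at the entry of the route, had 19.7 FPKM in CTR, 16.6 under DSF, 10.9 under IM and 8.86 in IM-DSF. The libraries fell in the same order as for PSAT1, with both IM-treated libraries below both others. The ratio was 0.551 in IM versus CTR (0.478 to 0.634) and 0.535 in IM-DSF versus DSF (0.453 to 0.632). Alone among the members, PHGDH has a deposited span that differs from its span in GENCODE 29, which gave the transcript lengths and overlaps. Its fragment numbers and intervals may therefore fit the counted gene less well. The level of PSAT1 per level of PHGDH had overlapping intervals in all libraries, at 3.51 in CTR (3.18 to 3.87), 3.41 under DSF (3.07 to 3.79), 3.5 under IM (3.09 to 3.98) and 3.87 in IM-DSF (3.31 to 4.52).

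PSPH (ENSG00000146733; chromosome 7, 56011051 to 56051604, minus strand), the phosphatase of the last step, had 4.0, 3.03, 2.88 and 1.99 FPKM in the control, DSF, IM and combined libraries, from 53 to 125 fragments. It too was highest in CTR and lowest in IM-DSF, but DSF and IM were close to each other. Its ratio was 0.719 in IM versus CTR (0.546 to 0.945) and 0.657 in IM-DSF versus DSF (0.458 to 0.922). As a group the 3 serine genes summed to 92.8, 76.1, 51.7 and 45.2 FPKM in the same order of libraries, with ratios of 0.557 (0.523 to 0.594) in IM versus CTR and 0.593 (0.550 to 0.639) in IM-DSF versus DSF.

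The cytosolic folate enzymes had the highest summed ratios of the 3 roles, 0.768 in IM versus CTR and 0.684 in IM-DSF versus DSF. SHMT1 (ENSG00000176974; chromosome 17, 18327860 to 18363563, minus strand), the cytosolic hydroxymethyltransferase, had 1.78 FPKM in CTR, 1.89 under DSF, 1.47 under IM and 1.66 in IM-DSF. The 4 counting intervals overlapped, and with 42 to 57 fragments per library the ratio of 0.827 in IM versus CTR had an interval of 0.550 to 1.25. MTHFD1 (ENSG00000100714; chromosome 14, 64388031 to 64463457, plus strand), which carries 3 folate-interconverting activities in the cytosol, had 17.0, 17.2, 13.0 and 11.4 FPKM. CTR and DSF were alike within counting error and both IM-treated libraries lay below them. The ratio of MTHFD1 was 0.762 in IM versus CTR (0.701 to 0.829) and 0.663 in IM-DSF versus DSF (0.604 to 0.728).

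The mitochondrial folate enzymes summed to a ratio of 0.681 in IM versus CTR and 0.578 in IM-DSF versus DSF. SHMT2 (ENSG00000182199; chromosome 12, 57229327 to 57234935, plus strand), the mitochondrial hydroxymethyltransferase, had 10.6, 9.88, 7.69 and 6.45 FPKM in the control, DSF, IM and combined libraries. Its ratio was 0.726 in IM versus CTR (0.612 to 0.863) and 0.652 in IM-DSF versus DSF (0.534 to 0.793). MTHFD1L (ENSG00000120254; chromosome 6, 150865549 to 151101887, plus strand), the formate-releasing ligase, had 12.5, 10.6, 7.50 and 7.44 FPKM. Its 2 IM-treated libraries were nearly equal and both below the others, with ratios of 0.602 (0.529 to 0.685) and 0.70 (0.605 to 0.807) in the same contrasts. MTHFD1L overlaps a processed pseudogene on its strand, AL133260.1, which went the other way (12.6, 14.1, 15.3 and 20.4 FPKM); how the counting divided their reads is not given in the sources used here.

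ALDH1L2 (ENSG00000136010; chromosome 12, 105019784 to 105084577, minus strand), the formyl-tetrahydrofolate dehydrogenase of mitochondria, had 11.1 FPKM in CTR, 11.6 under DSF, 7.62 under IM and 8.02 in IM-DSF. The libraries formed 2 pairs, split by IM and not by DSF. The ratio was 0.687 in IM versus CTR (0.630 to 0.749) and 0.690 in IM-DSF versus DSF (0.630 to 0.756). MTHFD2 (ENSG00000065911; chromosome 2, 74198562 to 74217565, plus strand), the mitochondrial dehydrogenase and cyclohydrolase that is low in most adult tissues and high in many tumours, had 35.5, 32.2, 24.6 and 15.3 FPKM. IM-DSF stood apart at the bottom, and IM lay between it and the libraries without IM. The MTHFD2 ratio was 0.693 in IM versus CTR (0.628 to 0.764) and 0.474 in IM-DSF versus DSF (0.418 to 0.537).

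With DSF alone (DSF versus CTR) the 9 enzymes summed to 0.880 of CTR (0.848 to 0.914), and no single difference reached 0.5 log2 units. Their median log2 difference was -0.14 (all genes 0.00), and 6 of the 9 were below CTR where 50.0% of all genes were. By 0.5 log2 units 0 were lower (2.81% of all genes) and 0 higher (3.49%), and by 1 log2 unit 0 were lower (0.573%). The 3 serine genes had the lowest ratios, PSPH 0.756 (0.575 to 0.996), PSAT1 0.818 (0.763 to 0.877) and PHGDH 0.841 (0.741 to 0.955), followed by MTHFD1L at 0.854 (0.758 to 0.963) and MTHFD2 at 0.907 (0.827 to 0.995). These 5 intervals lay below 1 (13.3% of genes); those of SHMT1, SHMT2, MTHFD1 and ALDH1L2 held it. Summed by role, serine synthesis was at 0.820 of CTR (0.774 to 0.870), the mitochondrial enzymes at 0.924 (0.872 to 0.979) and the cytosolic pair at 1.01 (0.937 to 1.099).

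What DSF added to IM is read from IM-DSF versus IM. MTHFD2 was the only member past 0.5 log2 units, at a ratio of 0.620 (0.545 to 0.706) and a log2 difference of -0.66, where 4.65% of all genes were lower by that much; 0 members were higher by it (3.19%; after rescaling to TPM, which gives every library the same total, 5.42% lower and 5.77% higher), and 0 passed 1 log2 unit downward (1.04%). In total 7 of the 9 were below IM (50.3% of all genes), with a median of -0.17 against 0.00. As deposited, MTHFD2 and 4 others had intervals below 1, as 1531 of the 10962 genes did: PSPH (0.691, 0.482 to 0.970), PHGDH (0.816, 0.684 to 0.977), MTHFD1 (0.878, 0.797 to 0.968) and PSAT1 (0.903, 0.822 to 0.991). After rescaling to TPM these 4 intervals held 1, with upper bounds of 1.004 for PSPH, 1.01 for PHGDH, 1.002 for MTHFD1 and 1.03 for PSAT1, and that of MTHFD2 alone stayed below it. The intervals of SHMT2, MTHFD1L, ALDH1L2 and SHMT1 held 1 on either scale.

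IM-DSF versus CTR shows both agents together, and the set was at its lowest there. The 9 enzymes summed to 0.526 of CTR (0.502 to 0.551), with serine synthesis at 0.487 (0.452 to 0.523), the mitochondrial enzymes at 0.534 (0.498 to 0.572) and the cytosolic pair at 0.694 (0.632 to 0.763). The median log2 difference was -0.67 against 0.02 for all genes, and all 9 were below CTR where 47.9% of genes were. The interval lay below 1 in 8 of them, all but SHMT1 (24.4% of genes). By 0.5 log2 units 7 of the 9 were lower, all but SHMT1 and ALDH1L2, against 10.4% of all genes, and 0 were higher against 12.2%. MTHFD2 (0.430 of CTR, 0.380 to 0.486) and PHGDH (0.450, 0.382 to 0.530) passed 1 log2 unit, as 1.74% of all genes did downward; PSAT1, at 0.496 (0.456 to 0.540) and a log2 difference of -0.99, lay just short of it.

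Whether the agents together departed from the product of their single ratios was read from all 4 libraries. For MTHFD2 the product of the single ratios gives 22.3 FPKM and 15.3 were measured, a ratio of 0.684 (0.585 to 0.799). On the log2(FPKM + 1) scale this departure was -0.52, and 7.23% of all genes had a more negative one. After rescaling to TPM the MTHFD2 ratio was 0.725 (0.620 to 0.847). MTHFD1 was at 0.869 of its product (0.768 to 0.984), but after rescaling to TPM at 0.922 with an interval that held 1 (0.814 to 1.04). The other 7 had intervals that held 1 as deposited, among them PSAT1 (1.103, 0.983 to 1.24), PHGDH (0.970, 0.783 to 1.20) and ALDH1L2 (1.005, 0.887 to 1.14); with TPM those of PSAT1 (1.17, 1.04 to 1.31) and MTHFD1L (1.23, 1.02 to 1.49) lay above 1.

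The mitochondrial share of folate enzyme transcripts was lower in IM-DSF than in CTR, and without MTHFD2 the intervals overlapped. The 4 mitochondrial enzymes made up 78.8% of the summed FPKM of the 6 folate enzymes in CTR (77.6 to 79.9), 77.1% under DSF (75.9 to 78.3), 76.7% under IM (75.2 to 78.0) and 74.0% in IM-DSF (72.2 to 75.8). The share was lowest in IM-DSF, whose interval did not reach that of CTR. Without MTHFD2 the shares were 64.5%, 62.8%, 61.2% and 62.7%, and the intervals of CTR (62.8 to 66.2) and IM-DSF (60.3 to 65.0) overlapped. MTHFD2 itself was 51.0% of the mitochondrial sum in CTR and 41.1% in IM-DSF.

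Paired enzymes of the 2 compartments were compared within each library. SHMT2 exceeded SHMT1 by 5.95 times in CTR (4.42 to 8.09), 5.23 under DSF (3.92 to 7.07), 5.22 under IM (3.79 to 7.22) and 3.88 in IM-DSF (2.77 to 5.63), with intervals that overlapped throughout. MTHFD1L was at 0.732 of MTHFD1 in CTR (0.663 to 0.808), 0.619 under DSF (0.558 to 0.687), 0.578 under IM (0.513 to 0.650) and 0.654 in IM-DSF (0.569 to 0.748), so the IM value lay below that of CTR beyond counting error. The level of MTHFD2 per level of MTHFD1 was 2.09, 1.87 and 1.90 in CTR, DSF and IM and 1.34 in IM-DSF (1.18 to 1.52), apart from the other 3.

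MTHFD2L, the paralogue of MTHFD2 that is expressed in adult tissues, went the opposite way. It had 1.01 FPKM in CTR, 1.39 under DSF, 1.79 under IM and 1.97 in IM-DSF, from 34 to 65 fragments, so that it was lowest where MTHFD2 was highest. Its ratio was 1.77 in IM versus CTR (1.14 to 2.74) and 1.95 in IM-DSF versus CTR (1.23 to 3.03), while the interval in IM-DSF versus DSF held 1 (0.939 to 2.12). MTHFD2 exceeded it 35.1-fold in CTR (24.7 to 50.6), 23.2-fold under DSF (17.3 to 31.8), 13.7-fold under IM (10.7 to 18.0) and 7.74-fold in IM-DSF (5.87 to 10.53). ALDH1L1, the cytosolic counterpart of ALDH1L2, was listed at 0 in all 4 libraries.

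**Figure D3:**
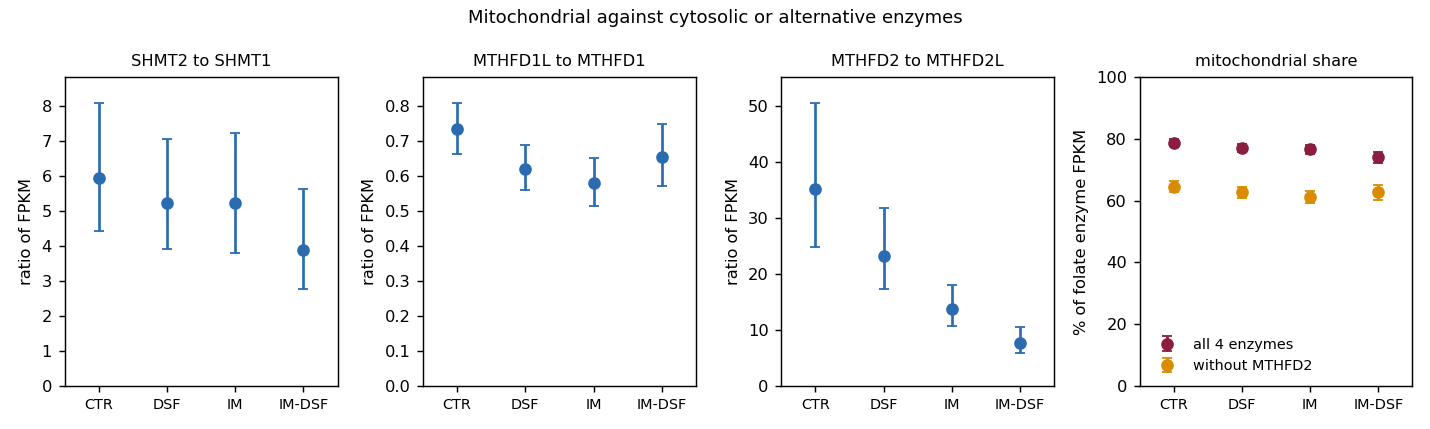
Ratios of FPKM in each library for SHMT2 to SHMT1, MTHFD1L to MTHFD1 and MTHFD2 to MTHFD2L, and the mitochondrial share of folate enzyme FPKM with and without MTHFD2; bars are 95% intervals of counting error, and all axes start at 0. The ratio of MTHFD2 to its paralogue goes from 35.1 in CTR to 7.74 in IM-DSF, while the share without MTHFD2 stays between 61.2% and 64.5%.

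The other folate pathway genes had a list median near 0 with IM. Of 17 further folate genes 11 passed the filter; in IM versus CTR 6 were lower and 5 higher, 0 of them by 0.5 log2 units, with a median of -0.01. SLC25A32, the mitochondrial folate carrier, which overlaps another gene, had 22.8, 20.4, 16.2 and 17.8 FPKM in the control, DSF, IM and combined libraries. TYMS, the thymidylate synthase, had 63.9, 60.4, 47.9 and 45.5 FPKM, and GGH, which removes glutamates from folates, 17.4, 16.1, 12.5 and 11.4. Both were lowest in IM-DSF, as were 7 of the 9 members. Their ratios in IM-DSF versus IM, 0.951 for TYMS (0.864 to 1.05) and 0.910 for GGH (0.765 to 1.08), had intervals that held 1.

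Among 17 genes of serine and glycine handling, 12 passed the filter and 3 were lower by 0.5 log2 units in IM versus CTR, with a list median of -0.07. SLC38A1, a neutral amino acid transporter with an overlapping gene on its strand, had 20.6, 15.6, 10.2 and 9.74 FPKM in the usual order of libraries. SFXN1, the mitochondrial serine carrier, had 3.68, 2.59, 2.19 and 2.0 FPKM, and its ratio in IM versus CTR was 0.596 (0.445 to 0.786). SLC1A5, which imports glutamine and also carries serine, had 77.2, 69.0, 49.3 and 30.01 FPKM. Like MTHFD2, SLC1A5 was lower in IM-DSF than in IM (0.609, 0.557 to 0.666). SLC1A4 and SLC38A2, serine carriers as well, stayed within 18.0 to 18.9 and 24.1 to 27.6 FPKM, and GLDC, the decarboxylase of the glycine cleavage system, was listed at 0.

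Purine synthesis, a main user of formyl folate, was lower in 10 of 12 genes in IM versus CTR, with a median of -0.20 and 2 past 0.5 log2 units. PPAT, the first committed enzyme, had 17.2, 15.0, 11.9 and 10.96 FPKM, and ADSL, the adenylosuccinate lyase (overlapping another gene), 7.31, 5.80, 4.52 and 5.11. The 2 enzymes that consume formyl folate, GART (overlapping a pseudogene; 17.0, 16.6, 15.9 and 14.6 FPKM) and ATIC (17.2, 16.4, 14.1 and 14.2), differed by less than 0.5 log2 units. The 2 that were not lower in IM were IMPDH1, which leads to guanine nucleotides (14.1, 16.5, 17.7 and 18.1 FPKM), at a ratio of 1.26 (1.12 to 1.41), and PAICS (37.5, 28.8, 39.0 and 20.8 FPKM), at 1.04 with an interval that held 1 (0.978 to 1.11). For the methionine cycle list the IM versus CTR median was -0.11, and 0 of 6 genes passed 0.5 log2 units; MAT2A, which makes S-adenosylmethionine, had 131, 142, 121 and 132 FPKM.

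ATF4 and its other known targets were mixed. ATF4 had 114.5 FPKM in CTR, 102 under DSF, 89.2 under IM and 74.8 in IM-DSF, the order shown by 6 of the 9 enzymes, with ratios of 0.779 in IM versus CTR (0.740 to 0.820) and 0.734 in IM-DSF versus DSF (0.692 to 0.779). Of 13 genes of the list past the filter, 6 were lower and 7 higher in IM versus CTR (median 0.00), and 2 were lower by 0.5 log2 units. These were TRIB3, a stress-induced pseudokinase (11.4, 5.52, 3.69 and 4.69 FPKM), and ASNS, the asparagine synthetase (5.78, 4.20, 3.37 and 3.24 FPKM, overlapping another gene). The counts leave out listed genes averaging below 1 FPKM. Of these, CHAC1 had 0.99, 0.88, 0.52 and 0.30 FPKM and STC2 1.35, 1.08, 0.70 and 0.59, both lower with IM. ATF3 had 0.55, 0.33, 0.30 and 0.35 FPKM, and NUPR1, higher in IM than in CTR, 0.021, 0.073, 0.049 and 0.11. DDIT3, the stress factor CHOP, which overlaps 2 genes on its strand, had 1.504, 1.31, 2.09 and 2.57 FPKM from 18 to 31 fragments; its ratio was 1.71 in IM-DSF versus CTR (0.922 to 3.06) and 1.956 in IM-DSF versus DSF (1.06 to 3.75). In IM-DSF versus DSF 10 of the 13 were lower, with a median of -0.07. MYC, another known regulator of SHMT2, had only 1.17, 1.34, 1.27 and 0.807 FPKM, and its intervals held 1 in all 5 contrasts. Over the list of 10 regulators the median was 0.00 in IM versus CTR, with 0 genes past 0.5 log2 units. The part of ATF4 or of these regulators in the values of the 9 enzymes was not tested.

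**Figure D4:**
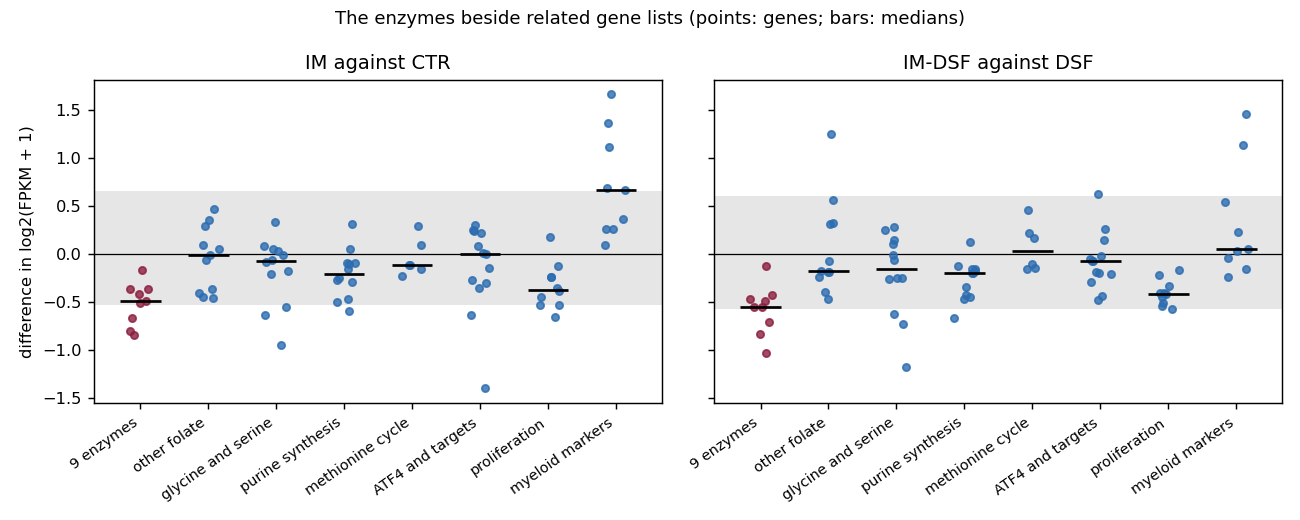
Differences in log2(FPKM + 1) of the 9 enzymes and of the genes past the filter in 7 related lists, in IM versus CTR and IM-DSF versus DSF; points are genes, bars are list medians and the grey band is the 5th to 95th percentile of all genes. The 9 enzymes have medians of -0.49 and -0.55, all on the lower side. The genes of the ATF4 list past the filter have medians of 0.00 and -0.07.

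Proliferation and myeloid marker transcripts also differed between these libraries. Of 10 proliferation genes 9 were lower in IM than in CTR (median -0.37, 3 past 0.5 log2 units) and all 10 were lower in IM-DSF than in DSF (median -0.41, 3 past it). Their summed level was 649 FPKM in CTR, 598 under DSF, 525 under IM and 452 in IM-DSF, the order shown by PSAT1 and PHGDH. Of the myeloid markers all 9 past the filter were higher in IM than in CTR (median 0.67) and 6 in IM-DSF than in DSF (median 0.05), with summed levels of 1632, 2172, 2754 and 2704 FPKM. The part of either in the values of the 9 enzymes was not tested.

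Genes of like pattern were sought among 3461 protein-coding genes averaging 5 FPKM or more without overlap on their strand, by the Euclidean distance between their 3 log2 differences from CTR. The nearest gene to PHGDH was PSAT1 (distance 0.10), followed by CCDC86, a nucleolar protein (0.11; 29.6, 26.2, 16.1 and 12.8 FPKM), and SLC39A14, a zinc and iron importer (0.12; 21.2, 18.5, 11.7 and 10.46 FPKM). PSAT1 had TNFRSF10A, a TRAIL receptor, nearest (0.09; 10.8, 8.20, 5.43 and 5.02 FPKM), then PHGDH and SLC39A14. MTHFD2 had DDA1, a ubiquitin ligase subunit (0.12; 7.74, 6.98, 4.77 and 2.66 FPKM), SNRPG, a core splicing protein (0.18), and SEC61A1, the channel of the endoplasmic reticulum (0.19). Among the members, PHGDH was the 23rd and PSAT1 the 53rd nearest to MTHFD2, and SHMT1 was the farthest of the 8 from each of the 3 genes. The likeness rests on 4 libraries that share the CTR reference. In the 3 contrasts with CTR, counting intervals of the members' log2 ratios had median half-widths of 0.17 (DSF), 0.19 (IM) and 0.20 (IM-DSF). The distances to the named nearest genes, 0.09 to 0.19, are of that size or smaller, so the order of these genes is not resolved.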

How the data were processed

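Stranded mRNA libraries, 1 per group, were made from KBM5 RNA, per the labels' protocols; nothing in the labels speaks of separate cultures. The authors deposited 1 table of FPKM values, per the file headers. HISAT2 2.0.4 and build GRCh38.p14 come from the submitters' processing notes. How reads were counted, on which annotation and with what strand setting is not given in the sources used here. GENCODE 29 gave biotypes, overlaps and transcript lengths.

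In single-exon genes, FPKM times length fell on multiples of 1 fragment (within 0.05) for 93.7% to 98.7% of values, which gave the denominators; no such steps could be recovered for the spliced members. Approximate fragments therefore use the median length of a gene's basic coding transcripts, and ratio intervals are exact conditional binomial (sums, shares and departures: delta method). PCR copies make them too narrow. Differences are in log2(FPKM + 1) over 11004 genes averaging 1 FPKM or more.

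Members, lists, size rules and motifs were chosen with earlier results of these data known. Named genes are the members, their listed partners and up to 4 genes per list with the largest difference. The 3 genes nearest in pattern to PHGDH, PSAT1 and MTHFD2 are named as well. GART, ATIC, PAICS, IMPDH1, SLC1A4, SLC38A2, MYC, DDIT3, GLDC and MAT2A were named after their values were seen. So were MTAP, CBS, KIT, CD34, NKG7, CHAC1, STC2, ATF3 and NUPR1. Python 3.11.15, pandas 2.3.3 and scipy 1.17.1 were used. Alternatives are listed in the closing section. Single values of some listed genes are not reported here.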

Additional observations from a re-analysis of the deposited data

How the results depend on the processing

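The alternatives were TPM rescaling, factors by median of ratios or trimmed mean, a pseudocount of 0.1, all genes, only genes averaging 5 FPKM, and coding genes free of same-strand overlap; under these no median or single difference of the members with a size of at least 0.5 log2 units changed sign. With the pseudocount of 0.1 the members lower by 0.5 log2 units went from 1 to 2 in IM-DSF versus IM and from 5 to 8 in IM-DSF versus DSF. In IM versus CTR they went from 4 to 5 with that pseudocount, TPM and either set of factors. In IM-DSF versus DSF they went from 5 to 6 with TPM and trimmed-mean factors. With overlapping members left out, they were 3 in IM versus CTR and 6 in IM-DSF versus CTR. PSAT1 in IM-DSF versus CTR went from -0.99 to -1.01 with the pseudocount and to -1.02 with trimmed-mean factors. The mitochondrial share without MTHFD2 was 64.5% (CTR), 62.8% (DSF), 61.2% (IM) and 62.7% (both agents); with MTHFD2 kept but SHMT1 and MTHFD1L, which overlap other genes, left out, the share was 77.1% in CTR and 75.8% in DSF, below the counting intervals of the full sums. Intervals under the 3 other scalings were added after seeing the data: members with an interval below 1 in IM-DSF versus IM went from 5 to 1 with TPM, while no other contrast lost or gained a member; with TPM the departure interval of MTHFD1 held 1 (0.922) and those of PSAT1 (1.17) and MTHFD1L (1.23) lay above it. Over all genes, shares past 0.5 log2 units moved by over 1.5 times in these cases. With TPM they went in DSF versus CTR from 2.81% to 4.42% lower and 3.49% to 5.32% higher, in IM versus CTR from 5.67% to 9.28% lower, and upward in IM-DSF versus IM from 3.19% to 5.77% and versus DSF from 7.66% to 12.5%. With the pseudocount of 0.1 they went in DSF versus CTR to 4.42% lower and 6.98% higher, and upward to 14.7% (IM versus CTR), 5.45% (IM-DSF versus IM) and 12.2% (IM-DSF versus DSF). In IM-DSF versus IM they fell to 1.95% higher among 5683 genes averaging 5 FPKM and from 4.65% to 2.57% lower among 6154 genes without overlaps. With all 50868 genes, of which 11004 average 1 FPKM or more, every share fell, to between 1.05% and 2.72% lower and 1.24% and 3.80% higher. These 3 gene sets differ from the first in their denominators. For TPM the values were divided by 0.2776 to 0.2875 while the pseudocount stayed at 1, so the pseudocount also weighed less there. How far this made the moves with TPM was not tested. No paired analysis was possible because each group has 1 library. Depth limits SHMT1 and PSPH most, with 42 to 57 and 53 to 125 fragments.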

Other observations

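Outside the comparisons above, MTAP, the methylthioadenosine phosphorylase of methionine salvage, was listed at 0.122 FPKM (CTR), 0.167 (DSF), 0.115 (IM) and 0.143 (IM-DSF). CBS, the entry of transsulfuration, was listed at 0.0867 to 0.113. GCSH, the lipoyl carrier of glycine cleavage, had 1.495, 1.78, 1.64 and 0.682 FPKM in the order CTR, DSF, IM, IM-DSF, from 20 to 63 fragments, and overlaps other genes on its strand. Of the named pseudogenes of the members, 7 of MTHFD2 and 4 of PSAT1 were in the table; the highest, MTHFD2P7, had 0.245 to 0.771 FPKM and was highest in CTR.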
